A study of Canis lupus familiaris with 4 samples.

Results

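Intermediate filaments are the rope-like part of the cytoskeleton, and which filament protein a cell makes is one of the oldest ways of telling cell types apart. Their expression was examined here in 4 canine glioblastoma lines through 10 genes, namely VIM, NES, GFAP, SYNM, NEFL, NEFM, KRT8, KRT18, LMNA and PPL. Every probe set whose single gene symbol was 1 of these was taken, which gave 17 of the 29254 probe sets with 1 symbol and 10 of 15115 genes. J3T-1 and J3T-2 come from the same parental canine glioma cells. The sample labels give only line names, and the paper gives J3T-1 high and J3T-2 low annexin A2 (ANXA2), a calcium-dependent membrane-binding protein. J3T-1shA is J3T-1 with ANXA2 knocked down, whereas J3T-2A was made from J3T-2 by ANXA2 overexpression. All 4 lines were grown in serum-containing medium, and the ANXA2 constructs and the clonality of the derived lines are not given in the sources used here. RNA of each line was hybridized to 1 Affymetrix Canine Genome 2.0 array, with no replicate, so no comparison carries a test.

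Intermediate filament proteins share a coiled rod and assemble by class. Vimentin (VIM) and glial fibrillary acidic protein (GFAP) are type III proteins of mesenchymal cells and astrocytes. The neurofilament light and medium chains (NEFL, NEFM), nestin (NES) of neural progenitors and synemin (SYNM) of muscle and astrocytes are type IV, and nestin and synemin need a partner such as vimentin to form filaments. Keratins are obligate pairs of a type I and a type II chain, and keratin 18 (KRT18) with keratin 8 (KRT8) is the pair of simple epithelia. Lamins A and C, both from LMNA, line the inner face of the nuclear envelope. Periplakin (PPL) is not a filament protein but a plakin, a linker that ties filaments to desmosomes and the cell cortex and is best known from epithelia. In the dog RefSeq annotation (assembly UU_Cfam_GSD_1.0) NEFL lies next to NEFM and KRT8 next to KRT18.

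The values are MAS 5.0 signals, intensities on a linear scale that the authors scaled to one trimmed mean per array, and the medians of the arrays were 101.8 to 106.5. Genes counted as measured between 2 arrays if either signal was 250 or more, a limit that 35.2% to 35.9% of probe sets reached per array. Ratios are given as log2 of the first line named over the second, and a gene counted as different when the ratio passed 2-fold in either direction. Where 2 probe sets of a gene were measured, their log2 ratios differed with an SD of 0.29 to 0.40 in the 6 pairs of arrays, over 3695 to 3801 genes. This spread is the only error at hand. It covers disagreement between probe sets on the same 2 arrays, and not error shared by a whole array or variation between cultures. The brightest ANXA2 probe set had signals of 28656 on J3T-1, 30093 on J3T-1shA, 30103 on J3T-2 and 28775 on J3T-2A. A second bright one had 24128, 25725, 30311 and 35651 in that order, so that J3T-2A was highest but J3T-1, high in the paper, was lowest. Both were higher on the array labelled J3T-1shA, the knockdown line, than on J3T-1. Signals this bright may be compressed, and ANXA2 thus does not bear out the line labels or the ANXA2 states in the paper. Every line name below is the label of an array.

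Of the 10 genes, 5 reached the limit on all 4 arrays (VIM, LMNA, NEFL, KRT8 and PPL), NES reached it on the array labelled J3T-1shA alone, and 4 reached it on none. GFAP, the filament by which astrocytic tumours are usually recognized, had signals of 2.3 to 40.4 over 3 probe sets and 4 arrays. NEFM had 0.7 to 6.1 over 2 probe sets, SYNM 13.4 to 82.2 over 2, and KRT18 11.1 to 76.8 over 2. These 9 probe sets all lay under the median signal of the arrays, and no ratio is read from them. Without detection calls a low signal does not show that a transcript was absent, and the match of these probe sets to the main transcripts was not tested. In bulk RNA a lower number of expressing cells and less transcript per cell cannot be told apart.

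**Figure D1:**
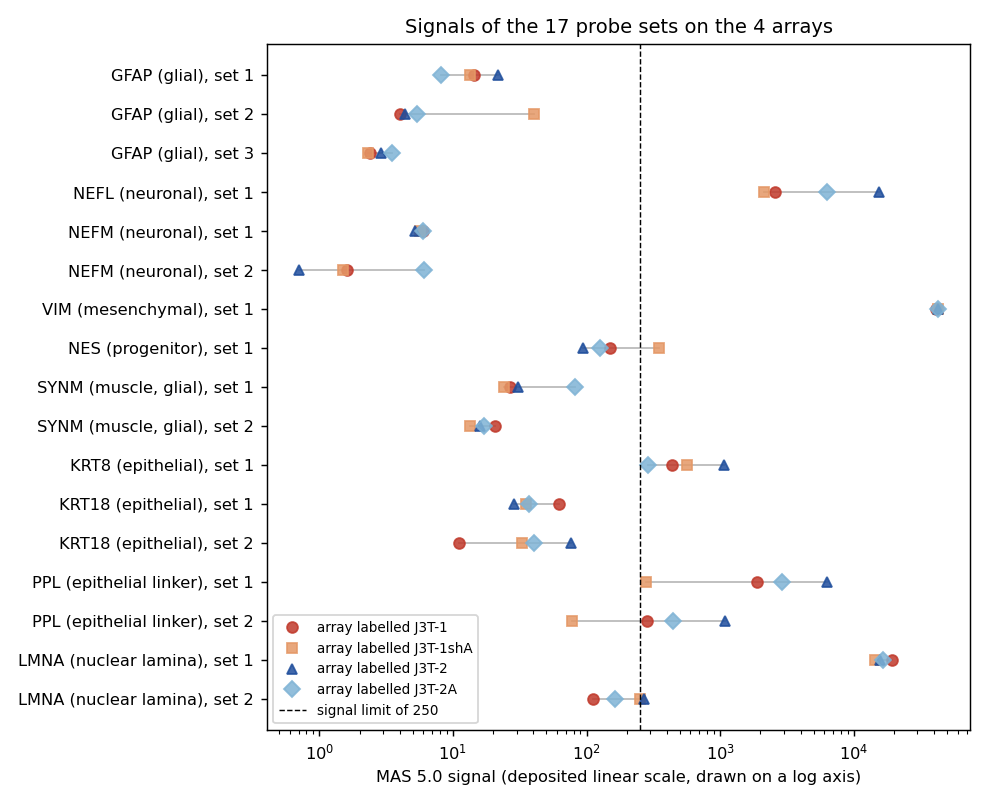
MAS 5.0 signals (x axis, linear values on a log axis) of the 17 probe sets (y axis, named by gene and numbered from the brightest), 1 point per array and 1 array per line, with a dashed line at the limit of 250. VIM and the brighter LMNA probe set form tight clusters far above the limit, NEFL, KRT8 and PPL are spread out with J3T-2 highest, and GFAP, NEFM, SYNM and KRT18 lie under the limit on every array.

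With 1 or 2 measured genes in a class, the classes are described by their single genes. Of the mesenchymal and progenitor filaments VIM was even and NES stood out on 1 array, the nuclear lamin varied little by its bright probe set, and the measured neuronal filament (NEFL) and both measured epithelial genes (KRT8 and PPL) were brightest on the array labelled J3T-2. The glial filament was not measured. Over the 4 arrays the highest signal exceeded the lowest by a log2 range of 4.50 for PPL, 2.86 for NEFL, 1.90 for KRT8, 1.87 for NES, 0.43 for LMNA and 0.06 for VIM. Among 7241 genes that reached the limit on any array the median range was 0.53, and 16.8% had a range over 2-fold. PPL had the 63rd widest range and NEFL the 189th, whereas VIM had the 7219th.

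VIM was represented by 1 probe set, with signals of 41177 on J3T-1, 43058 on J3T-1shA, 42739 on J3T-2 and 42454 on J3T-2A. These lie just under the highest signals of any probe set, 44435 to 46646, so that compression at the bright end was not excluded and the evenness does not show equal mRNA. The 6 log2 ratios ran from -0.06 to 0.04, well inside the spread between probe sets. Vimentin is a standard mesenchymal marker. Of 13 other listed mesenchymal markers 12 reached the limit on some array, where 7241 of all 15115 genes did. These 12 included fibronectin (FN1, 20091 to 26217) and N-cadherin (CDH2, 4298 to 10267). The summed signal of that list was 110300 on J3T-1, 111891 on J3T-2, 127760 on J3T-2A and 144479 on J3T-1shA.

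LMNA had a bright and a dim probe set that ran opposite ways. The bright one had signals of 19479 on J3T-1, 14445 on J3T-1shA, 15827 on J3T-2 and 16436 on J3T-2A. It was thus brightest on J3T-1, with a log2 ratio of 0.43 for J3T-1 over J3T-1shA, just beyond the SD between probe sets of 0.37. J3T-2A over J3T-2 had 0.05. The dim one, whose name marks probes that may cross-hybridize, had 111.6, 252.0, 269.0 and 163.2 in the same order and was lowest on J3T-1. Its log2 ratio was -1.18 in the J3T-1 lines (J3T-1 over J3T-1shA) and -0.72 in the J3T-2 lines (J3T-2A over J3T-2), each with 1 array under the limit. No direction is therefore given for LMNA. All 7 other lamins and lamina partners listed reached the limit. LMNB1, which encodes lamin B1, had 4502 on J3T-1, 6949 on J3T-1shA, 4151 on J3T-2 and 4767 on J3T-2A, within 2-fold in every pair. LMNB2, for lamin B2, reached the limit only on J3T-1shA (289.0) and was lowest on J3T-2 (121.4).

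NES was near the limit. Its probe set had 150.2 on J3T-1, 345.9 on J3T-1shA, 94.9 on J3T-2 and 126.4 on J3T-2A, so that J3T-1shA stood alone above it. J3T-1 over J3T-1shA had a log2 ratio of -1.20, J3T-1shA over J3T-2 of 1.87 and J3T-2A over J3T-1shA of -1.45. Since the other signal lay under the limit each time, these amount to at least a 1.38-fold difference when it is set at the limit. Among neural stem cell markers SOX2 and PAX6 reached the limit and MSI1, PROM1, FABP7 and NOTCH1 did not. SOX2, a transcription factor of neural progenitors, was also brightest on J3T-1shA (1663 against 936.8 on J3T-1, 1454 on J3T-2 and 1175 on J3T-2A), whereas PAX6 was dimmest there (680.7 against 824.0, 2958 and 2017). ACTA2, the smooth muscle actin gene from the mesenchymal list, had 13625 on J3T-1shA against 562.2 on J3T-1, 24.9 on J3T-2 and 98.7 on J3T-2A, and its part in the NES reading was not tested.

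NEFL, the core subunit on which neurofilaments assemble, separated the lines clearly. Its single probe set had a signal of 15463 on J3T-2, 6291.5 on J3T-2A, 2561 on J3T-1 and 2134 on J3T-1shA. Both J3T-2 lines were thus above both J3T-1 lines, and within the former the array labelled J3T-2A was the lower. Against J3T-2 the log2 ratio was -1.30 for J3T-2A, -2.59 for J3T-1 and -2.86 for J3T-1shA. J3T-2A had log2 ratios of 1.30 over J3T-1 and 1.56 over J3T-1shA. The 2 lowest, J3T-1 and J3T-1shA, differed by 0.26, less than the SD between probe sets of 0.37. For J3T-1 over J3T-2 its ratio was the 44th lowest of 6967 measured genes. The gene name rests on the array annotation alone, because its Entrez identifier was not found in the RefSeq table, which lists NEFL under another.

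The signal of NEFL did not go with that of the 3 neuron markers that were measured. NEFM, its neighbour and usual partner, was at 6.1 or lower on every array, and the heavy chain gene NEFH had 5.4 to 53.2. INA, the internexin gene, had 7.7 to 107.0. Of 9 neuron markers 3 reached the limit on some array, where 7241 of all 15115 genes did. TUBB3, the neuronal beta-tubulin, had 725.4 on J3T-1, 958.8 on J3T-1shA, 552.7 on J3T-2 and 821.9 on J3T-2A, and the microtubule protein gene MAP2 had 286.6, 368.8, 199.9 and 259.3. Both were lowest on J3T-2, where NEFL was highest. GAP43, a growth cone protein gene, was highest on J3T-2A, at 1711 against 727.0 to 1050 on the others. SNAP25, SYP, SYT1, RBFOX3, DCX and STMN2 were under the limit throughout, and no order of the arrays is read from them.

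KRT8 also had its highest signal on J3T-2 and its lowest on J3T-2A. The signals were 1076 on J3T-2, 562.6 on J3T-1shA, 435.4 on J3T-1 and 288.0 on J3T-2A, all over the limit. Against J3T-2 the log2 ratio was -1.90 for J3T-2A, a 3.74-fold difference, and -1.31 for J3T-1. It was -0.37 for J3T-1 over J3T-1shA, equal to the SD between probe sets, and -0.94, -0.60 and -0.97 for J3T-1shA over J3T-2, J3T-2A over J3T-1 and J3T-2A over J3T-1shA. Its J3T-2A over J3T-2 ratio was the 32nd lowest of 6860 measured genes.

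The KRT8 reading is uncertain in its source because the annotation lists other loci with KRT8. A further 3 probe sets are listed for KRT8 together with 1 or 3 other loci, of which RefSeq classes LOC487839 and LOC482276 as pseudogenes and LOC485387 as protein-coding. These, and 2 listed for KRT18 with other loci, were left out of all counts. The pair of KRT8 probe sets among them that reached the limit had 619.2 and 929.1 on J3T-2, 330.4 and 416.6 on J3T-1shA, 238.2 and 341.4 on J3T-1, and 207.9 and 195.0 on J3T-2A, the same order of arrays as the KRT8 probe set. Both are listed under the same source sequence, so they are not independent of each other. Whether KRT8 or a locus listed with it carries the difference cannot be told from these probe sets, and sequences were not compared.

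The keratin partner KRT18 was not measured beside KRT8. Both KRT18 probe sets were under the limit on all arrays, at 28.7 to 62.5 and 11.1 to 76.8. KRT19, also among the simple keratins listed, had no probe set with its single symbol and was not assessed. Of the other keratins KRT7, a type II keratin of simple and glandular epithelia, was the only 1 measured among 4 simple and 10 stratified keratins with a probe set. Its 2 probe sets had 1314 and 1061 on J3T-1, 560.5 and 408.2 on J3T-1shA, 1071 and 929.9 on J3T-2, and 526.7 and 392.7 on J3T-2A. Both derived lines were thus lower than their parents in both probe sets, with log2 ratios of -1.02 and -1.24 in J3T-2A over J3T-2 and of 1.23 and 1.38 in J3T-1 over J3T-1shA. J3T-1 over J3T-2 had 0.30 and 0.19, within the spread of 0.37, in contrast to the lower value of KRT8.

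PPL had the widest range, and its 2 probe sets ranked the arrays identically. The brighter one had a signal of 6357 on J3T-2, 2898 on J3T-2A, 1879 on J3T-1 and 280.9 on J3T-1shA. The other had 1085, 446.1, 283.0 and 78.4 in that order, the last of them under the limit. J3T-1shA was the lowest in both, and by the brighter probe set every step in the order was larger than the SD between probe sets. Against J3T-2 the log2 ratios of the 2 probe sets were -1.13 and -1.28 for J3T-2A and -1.76 and -1.94 for J3T-1. J3T-2A over J3T-1 gave 0.62 and 0.66, within 2-fold. With J3T-1shA the brighter probe set gave a log2 ratio of 2.74 for J3T-1 over it, 3.37 for J3T-2A over it and -4.50 for it over J3T-2, the last a 22.6-fold difference. The second probe set, under the limit on that array, gave the same directions, with differences of at least 1.13-fold, 1.78-fold and 4.34-fold when it is set at the limit. By the brighter probe set the J3T-1 over J3T-1shA ratio of PPL was the 27th highest of 6944 measured genes.

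Of 6 other plakins and linkers with a probe set 3 were measured, and none was over 2-fold different in any pair. Over all measured genes only 3.79% to 9.70% were over 2-fold different in a pair. Counts over so few genes are therefore not read as a result on plakins or desmosome genes. PLEC, which encodes the widely expressed linker plectin, had signals of 889.0 to 1066 and was within 2-fold in all 6 pairs. DST and MACF1, which encode the large linkers dystonin and the microtubule-actin crosslinking factor, had 1709 to 3096 and 2554 to 4142. Both were highest on J3T-1shA, where PPL was lowest. DSP, for desmoplakin, and EVPL, for the PPL partner envoplakin, stayed under the limit, at 11.8 to 74.8 and 54.7 to 91.7. Of 8 desmosome genes with a probe set 4 were measured, and JUP, PKP4 and PERP were within 2-fold throughout. JUP, for plakoglobin, had 757.9 on J3T-2, 570.4 on J3T-2A, 502.7 on J3T-1shA and 494.8 on J3T-1, so that it was also highest on J3T-2. PKP1, PKP3, DSG2 and DSC2 were under the limit. PKP2, for plakophilin-2, had 215.6 on J3T-1, 509.5 on J3T-1shA, 469.8 on J3T-2 and 337.3 on J3T-2A, a log2 ratio of -1.24 for J3T-1 over J3T-1shA, where PPL had 2.74.

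**Figure D2:**
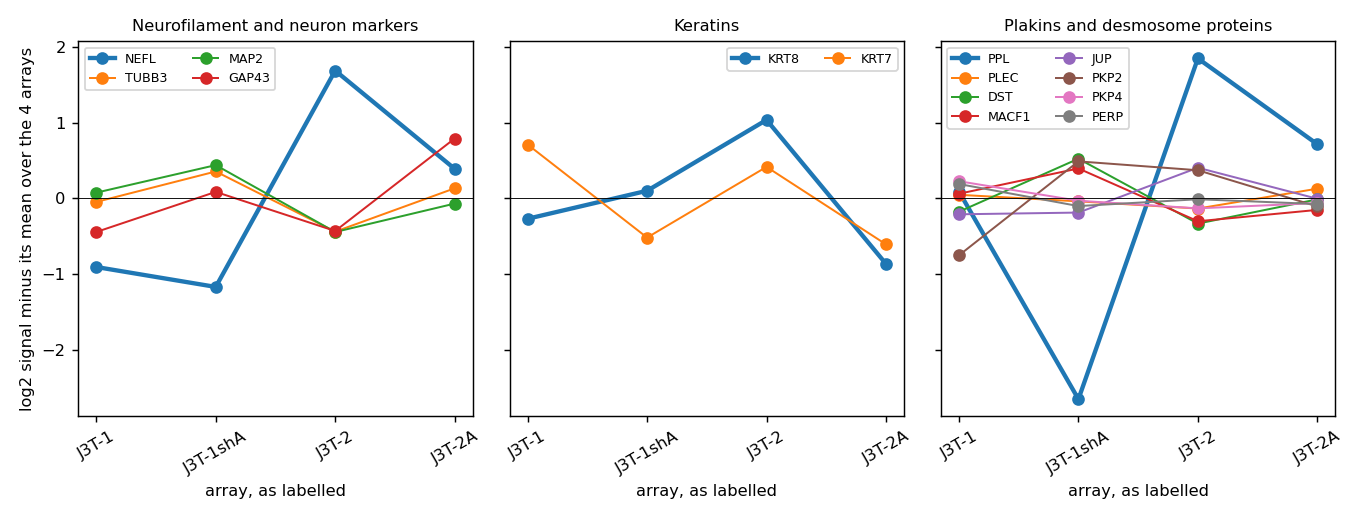
Log2 signal of the brightest probe set minus its mean over the 4 arrays (y axis) for measured genes, with arrays as labelled on the x axis, 1 array per line, and lines only joining the values of a gene. NEFL, KRT8 and PPL (thick lines) peak on J3T-2, whereas the neuron markers TUBB3 and MAP2 are lowest there, KRT7 is low on both derived lines, and the measured plakins and desmosome genes have narrower ranges than PPL.

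Of 8 lists of cell type markers, 3 had their highest summed signal on J3T-2, where NEFL, KRT8 and PPL peaked. Such a sum follows its brightest genes and includes signals under the limit, so it is not read as agreement of a whole list with these genes. The other 5 had it on another array, though the epithelial list among them was under the limit throughout and its order is not read. Over all genes 7241 of 15115 reached the limit on some array. None of 10 epithelial markers did, including EPCAM (2.7 to 38.4) and CDH1 (9.0 to 31.3). Their summed signal was 586.2 on J3T-1, 546.1 on J3T-1shA, 436.7 on J3T-2 and 395.7 on J3T-2A. No order of the arrays is read from signals this dim. Of 8 astrocyte markers SLC1A3, GJA1 and ALDOC reached the limit, while AQP4 (3.4 to 16.9) and S100B (12.7 to 33.6) did not, nor did GFAP. The summed signal of these 8 was 8463 to 11143. The sum of 6 oligodendrocyte and progenitor markers was 1777 on J3T-2, 1651 on J3T-2A, 1423 on J3T-1shA and 849.6 on J3T-1. CNP, a myelin enzyme gene, had 1014 on J3T-2, 1019 on J3T-2A, 977.2 on J3T-1shA and 396.9 on J3T-1. PDGFRA, a growth factor receptor gene of glial progenitors, had 352.7, 286.5, 180.7 and 88.9 in that order. Both were over 2-fold lower in J3T-1 over J3T-2 and over 2-fold higher in J3T-2A over J3T-1, as NEFL was, and the other 4 were under the limit. The sum of 6 neural stem cell markers was 4714 on J3T-2, 3523 on J3T-2A, 2636 on J3T-1shA and 2052 on J3T-1, with PAX6 in the order of NEFL and PPL. PAX6 made up 2958 of the sum on J3T-2. SOX2, the other measured gene of that list, was highest on J3T-1shA (1662.5 against 1454 on J3T-2). Of 5 microglial and macrophage markers C1QA alone was measured, with 661.5 on J3T-1, 514.8 on J3T-1shA, 317.4 on J3T-2 and 298.0 on J3T-2A. PECAM1 alone reached the limit among 5 endothelial markers, and on J3T-2 alone, with 773.2 there and 161.0 on J3T-2A, 37.0 on J3T-1 and 1.0 on J3T-1shA. CDH5, VWF, KDR and TEK were at 91.6 or lower, and the summed signal of the list was 1007 on J3T-2 and 206.0 to 303.2 on the others. The astrocyte marker ALDOC also had the order of NEFL and PPL, within 2-fold in every pair (6280 on J3T-2, 5446 on J3T-2A, 4900 on J3T-1 and 3604 on J3T-1shA). The other measured astrocyte markers, SLC1A3 and GJA1, were instead lowest on J3T-2 (1996 and 694.7) and highest on J3T-1shA (5505.5 and 1499). The part of these cell types in the results was not tested.

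Set against all genes, the comparisons ran as follows. J3T-2A over J3T-2 is in the paper an overexpression of ANXA2. Of 5 measured genes 3 (NEFL, KRT8 and PPL) were over 2-fold lower there and none was higher. Over all 6860 genes measured in this pair, 3.79% were over 2-fold different in either direction. J3T-1 over J3T-1shA is in the paper a parent over its ANXA2 knockdown. There PPL was over 2-fold higher and NES over 2-fold lower of 6 measured, against 8.06% of 6944 genes. NES was measured through J3T-1shA alone, and its call was lost with a limit of 500, with a pseudocount of 80 (log2 ratio -0.89) and with signals under the limit raised to it (-0.47). Between the parental lines, J3T-1 over J3T-2, the same 3 genes as in J3T-2A over J3T-2 were over 2-fold lower of 5 measured, against 6.99% of all measured genes. Both of these comparisons use the array labelled J3T-2, so a high reading on that array enters both.

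For J3T-1shA over J3T-2, NEFL and PPL were over 2-fold lower and NES was higher of 6, against 9.70% of all measured genes. For J3T-2A over J3T-1, NEFL alone was over 2-fold different of 5, against 4.66%. For J3T-2A over J3T-1shA, NEFL and PPL were over 2-fold higher and NES lower of 6, against 5.77%. In both pairs with J3T-1shA here NES again passed through that array alone, and its call was lost with a limit of 500 and with signals raised to the limit (0.47 and -0.47). The median log2 ratio of the measured genes was -1.13 in J3T-2A over J3T-2, -1.31 in J3T-1 over J3T-2 and 0.10 in J3T-1 over J3T-1shA. That of all genes measured was -0.003, 0.03 and 0.03. The 10 genes were named with earlier results of these data known, and so few were measured that these shares describe the single genes and not filament genes as a class. Of 52 related genes listed (other filaments, keratins, lamins, plakins and desmosome proteins), 41 had a probe set and 17 reached the limit. In J3T-2A over J3T-2 KRT7 was the only 1 of 15 measured over 2-fold lower and none was higher. In J3T-1 over J3T-1shA KRT7 was higher and PKP2 lower of 17.

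**Figure D3:**
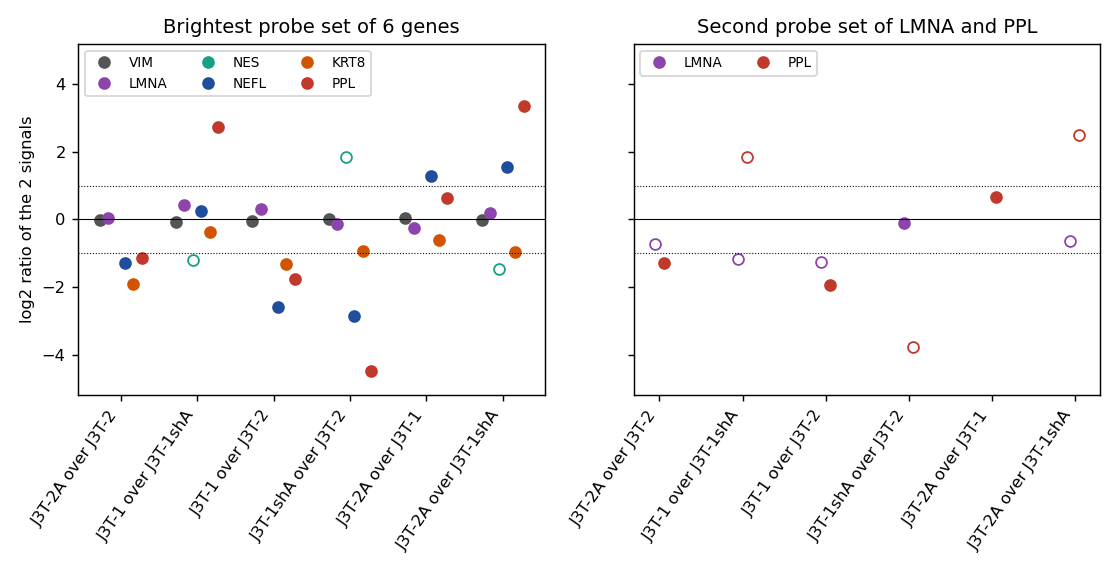
Log2 ratio of both signals (y axis) in each of the 6 pairs of arrays (x axis) for the brightest probe sets of 6 genes (left) and the second probe sets of LMNA and PPL (right), with 1 array per line and no error bars. Filled points have both arrays at or over a signal of 250, open points only 1, and dotted lines mark 2-fold; pairs with neither array at the limit are not drawn. VIM stays near 0, PPL spans -4.50 to 3.37, and the second PPL probe set gives the same directions.

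Ordered by the ANXA2 states in the paper, high over low, NEFL and KRT8 did not repeat in the J3T-1 lines what was seen in the J3T-2 lines. PPL ran the other way. NEFL had log2 ratios of -1.30 and 0.26, KRT8 of -1.90 and -0.37 and PPL of -1.13 and 2.74. Set against its parent instead, each derived line was lower for PPL. NEFL was lower in both too, though within the SD between probe sets in the J3T-1 lines, and KRT8 in J3T-2A only. With 1 array per line the differences between the ratios of the J3T-2 and J3T-1 lines were not tested.

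**Figure D4:**
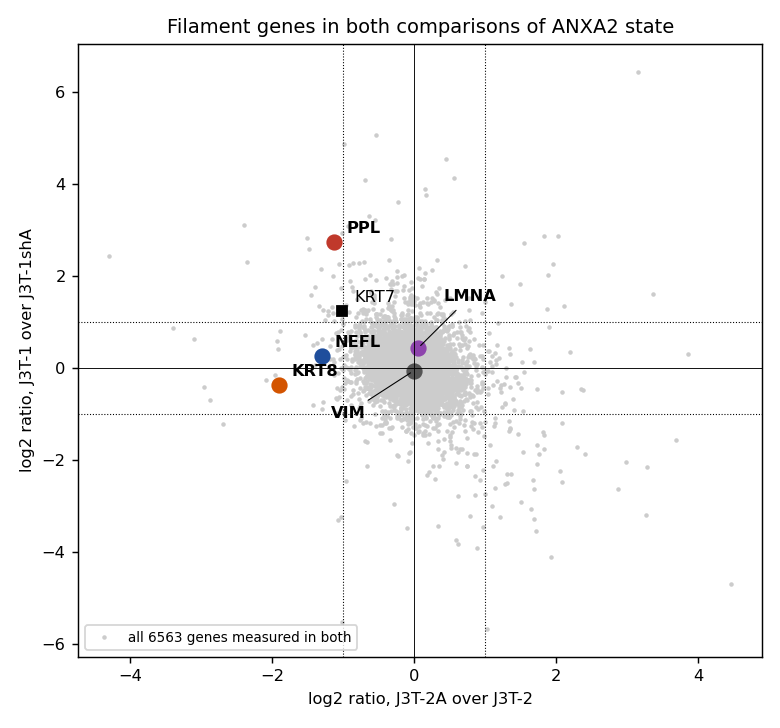
Log2 ratio of J3T-2A over J3T-2 (x axis) against J3T-1 over J3T-1shA (y axis) for the 6563 genes measured in both (grey), with the 5 filament and linker genes measured in both as coloured circles and KRT7 as a black square, 1 array per line and 2-fold marked by dotted lines. NEFL and KRT8 lie to the left near the horizontal axis, PPL and KRT7 lie at the upper left, and VIM and LMNA lie at the centre.

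As a description over 4 arrays, each gene's log2 signals were centred on their mean and compared with those of 7240 other genes that reached the limit on any array, by the root mean square difference. Nearest to NEFL were GAS1, which encodes a membrane protein of growth-arrested cells (0.09), CNGB1, a cyclic nucleotide-gated channel gene (0.14), and the fibrinogen-like gene FGL2 (0.17). FGL2 had 5574 on J3T-2, 3022 on J3T-2A, 1124 on J3T-1 and 1015 on J3T-1shA, whereas GAS1 and CNGB1 reached the limit on J3T-2 alone. Nearest to PPL were FLT1, a VEGF receptor gene (0.35), HGF, which encodes a growth factor (0.36), and the transcription factor gene KLF4 (0.36), and all 3 were highest on J3T-2 and lowest on J3T-1shA. KLF4 had 1945 on J3T-2, 935.1 on J3T-2A, 775.1 on J3T-1 and 161.9 on J3T-1shA. NEFL itself was the 65th nearest to PPL (0.91). Nearest to KRT8 were NTN3, TMEM190 and FCN2 (0.24 each), which reached the limit on J3T-2 alone. Nearest to NES were TGFB1I1, a focal adhesion gene (0.13), BTK (0.13) and SYNPO2 (0.14), all highest on J3T-1shA. With 4 points a profile, so many genes compared and dim signals among the nearest, such likeness is a weak description.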

How the data were processed

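RNA from 4 canine glioma lines was measured on 1 Affymetrix Canine Genome 2.0 array each. The authors computed the deposited signal intensities with MAS 5.0 in single-array analyses with global scaling, and the trimmed means of the columns (2% left out at each end) were 495.8 to 496.0, not the target given in the methods. The deposited table holds no detection calls and precision is limited by the number of arrays. Samples were grouped by the line their labels name. Of 42924 probe sets, 29254 were listed with 1 gene symbol, 439 with several and 13231 were not listed in the platform annotation. The brightest probe set by mean signal over the 4 arrays stood for a gene in counts, and every probe set of the 10 genes was shown. The Entrez identifiers of 9 of the 10 had the same symbol in RefSeq. Ratios were taken without pseudocount or further normalization in Python 3.11.15 with pandas 2.3.3. The ratio and count steps were checked on simulated data with little noise and changes planted only in bright genes. That checks the code and not how reliable calls near 2-fold are.

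No P value was computed, since each line has 1 array. Named genes were the 10 members, related genes over 2-fold in any pair, cell type markers, ANXA2, and the 3 genes nearest in profile to each measured member with a range over 2-fold. The remaining related genes given values were chosen after these were seen. The members and lists were chosen with earlier results of these data known. Alternatives were a signal limit of 500, no limit, a pseudocount of 80, quantile normalization, median centring, the median of a gene's probe sets and each further probe set. Raising signals under 250 to that value was added after seeing the data. No build is named for the array, so no positions are given, and protein and promoter sequences were not used here.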

Additional observations from a re-analysis of the deposited data

Results flagged for a closer look

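Ordered by the ANXA2 states in the paper, high over low, PPL went opposite ways in the J3T-2 and J3T-1 lines. Its log2 ratio was -1.13 in J3T-2A over J3T-2 and 2.74 in J3T-1 over J3T-1shA. These differ by 3.88, and its second probe set gave -1.28 and, with J3T-1shA under the limit and set at it, at least 1.13-fold higher on J3T-1. Both derived lines were lower than their parents, at 2898 against 6357 and 280.9 against 1879 by the brighter probe set. The signs were thus opposite when ordered by ANXA2 state and alike when ordered as derived line over parent. The reason was not tested. KRT7, the keratin gene of simple epithelia, also had opposite signs, with -1.02 and 1.23, a difference of 2.25. Its second probe set gave -1.24 and 1.38, and it too was lower in both derived lines. With 1 array per line neither difference was tested.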

How the results depend on the processing

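The calls that rested on NES or on dim genes changed with the processing. For J3T-1 over J3T-1shA, the number of genes over 2-fold went from 2 to 1 with a signal limit of 500, with a pseudocount of 80 and with signals under the limit raised to it (chosen after seeing the data), because NES was no longer over 2-fold or no longer measured while PPL remained. With no signal limit the number went from 3 to 5 for J3T-2A over J3T-2, adding GFAP and SYNM, and from 1 to 2 for J3T-2A over J3T-1, adding SYNM, where 19.0% and 19.7% of all genes were then over 2-fold. The other 37 counts stayed within 1.5 times, but J3T-1shA over J3T-2 and J3T-2A over J3T-1shA each lost NES at a limit of 500 and with signals raised to the limit, and with no limit KRT18 joined J3T-1 over J3T-2 and SYNM joined J3T-2A over J3T-1shA. NEFL, KRT8 and PPL were over 2-fold in J3T-2A over J3T-2 under each alternative. Of the recomputed log2 ratios of single genes 219 moved by less than the SD between probe sets and 19 by more, those of LMNA, NES and PPL, and no ratio over 2-fold changed sign. NES in J3T-1shA over J3T-2 had 0.47 with dim signals raised to the limit. Without detection calls, whether the 4 genes under the limit are above background was not tested.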
